A study of Mus musculus with 4 samples.

Results

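Meiotic strand exchange and crossover formation were followed through 10 genes, *Dmc1*, *Meiob*, *Spata22*, *Hfm1*, *AI481877* (the gene also called *Shoc1*), *Msh4*, *Msh5*, *Mlh3*, *Rnf212* and *Tex11*, chosen by name for the role of their proteins out of the 55820 loci of the count table. The question was how their RNA differed in the testis once the spindle checkpoint kinase gene *Mps1* (also named *Ttk*) had been deleted in germ cells. RNA of whole testes was sequenced from C57BL/6J males on postnatal day 10 (P10), with 2 control libraries and 2 Mps1sKO libraries. In Mps1sKO mice a floxed *Mps1* allele was deleted by Stra8-Cre, a recombinase that acts in early spermatogonia and preleptotene spermatocytes, so that somatic cells and earlier germ cells kept the gene. The labels name the other group only as control, and whether those mice carried floxed alleles or Cre is not given in the sources used here. The series text calls the 2 libraries of a group biological replicates but does not say how many animals each holds.

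In meiotic prophase, double-strand breaks are cut into the chromosomes and repaired from the homologous chromosome. DMC1, a recombinase found only in meiosis, coats the resected single strand and carries out the search for the homolog, while MEIOB and SPATA22 bind the same single-stranded DNA. The joint molecules that form are then held and matured by the so-called ZMM proteins, which include the helicase HFM1, the XPF-like protein SHOC1, the MSH4-MSH5 clamp, the RING-finger protein RNF212 and the scaffold TEX11. The nuclease subunit MLH3 helps to resolve a few of them as crossovers, the links that hold homologs together until the first division. On P10 the most advanced germ cells of a mouse testis are early spermatocytes, in which strand exchange is under way and crossovers form later.

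RefSeq (GRCm38.p6) gives a promoter window, from 250 bases before to 50 bases after the transcription start, for 7 of the 10 genes, and for *Meiob*, *AI481877* and *Tex11* none was used. Motifs known from germ cell or cell cycle transcription were searched on both strands. The sequence CNCCTCAG, bound by STRA8 and MEIOSIN at meiotic entry, was in the windows of 2 genes, *Hfm1* with 2 copies and *Msh5* with 1. Of all 27025 genes with a window of that length, 9.12% held it. The E2F sequence GCGGGAA was in 3 (*Spata22*, *Msh5* and *Rnf212*) against 5.29% of genes. The E-box CACGTG was in 1 (*Rnf212*) against 8.09%, and the cAMP response element TGACGTCA was in none of the 7, against 2.03%. The stretches shown run from 200 bases before the start to 10 bases after it and are written in the direction of transcription, with CNCCTCAG and GCGGGAA matches of either strand in capitals. *Hfm1* (chr5:106925881-106926090, minus strand) and *Msh5* (chr17:35046613-35046822, minus strand) are shown because they hold the meiotic entry sequence, *Rnf212* (chr5:108775018-108775227, minus strand) because its RNA differed most among those with a window, and *Mlh3* (chr12:85270590-85270799, minus strand) because its RNA differed least. The matches are a description of the letters and not evidence of binding. The RefSeq start lies 431 bases from the outermost GENCODE start for *Hfm1*, 123 bases for *Msh5* and 45 bases for *Rnf212*, and at the same base for *Mlh3*.
*Hfm1*: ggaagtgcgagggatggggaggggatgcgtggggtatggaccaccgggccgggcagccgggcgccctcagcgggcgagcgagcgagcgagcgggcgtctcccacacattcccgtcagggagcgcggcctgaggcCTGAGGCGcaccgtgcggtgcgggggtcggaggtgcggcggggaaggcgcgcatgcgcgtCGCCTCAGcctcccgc
*Msh5*: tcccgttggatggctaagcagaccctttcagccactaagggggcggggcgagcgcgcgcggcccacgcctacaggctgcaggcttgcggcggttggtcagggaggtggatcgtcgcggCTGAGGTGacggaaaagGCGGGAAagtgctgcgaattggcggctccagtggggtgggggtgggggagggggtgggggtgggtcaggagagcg
*Rnf212*: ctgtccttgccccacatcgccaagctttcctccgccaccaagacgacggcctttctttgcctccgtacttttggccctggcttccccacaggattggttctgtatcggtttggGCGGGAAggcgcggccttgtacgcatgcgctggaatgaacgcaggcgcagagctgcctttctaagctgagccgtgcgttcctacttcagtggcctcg
*Mlh3*: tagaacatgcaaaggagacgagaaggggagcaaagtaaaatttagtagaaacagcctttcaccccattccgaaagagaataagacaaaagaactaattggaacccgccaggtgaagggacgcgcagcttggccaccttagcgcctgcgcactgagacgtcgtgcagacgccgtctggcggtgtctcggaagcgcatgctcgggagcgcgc

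The targeted gene was checked first. *Ttk* (chr9:83834689-83872389) had 27.8 and 32.5 CPM in control and 13.0 and 12.2 CPM in Mps1sKO testes, where CPM is the count scaled to the library total, after TMM normalization. The groups did not overlap, and the log2 fold change was -1.26 ± 0.129 (SE), with an adjusted p of 0.046 by the quasi-likelihood F test of edgeR with Benjamini-Hochberg adjustment over 20561 tested loci. The libraries held 23311689 to 28607746 counts. The counts cover the whole gene, not only the deleted exons, and the RNA of all cells of the testis.

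The RNA of all 10 genes was lower on average in Mps1sKO testes than in control, at 61.2% to 93.7% of the control mean, with a median log2 fold change of -0.52. For 9 of the 10, both Mps1sKO libraries lay below both control libraries, against 21.1% of all tested loci that did so. An unadjusted p below 0.05 with lower RNA was reached by 7 genes (background 5.37% of loci). The study's cut-offs, more than 1.5-fold and p under 0.01 before adjustment, were passed by 3 genes, *Dmc1*, *AI481877* and *Rnf212* (background 0.681%), and the relaxed cut-offs of 1.2 and 0.05 by 7 (background 4.95%). None passed after adjustment over all loci: the adjusted p values from edgeR ranged from 0.494 to 0.847, and across the table only 6 loci (0.0292%) had an adjusted p below 0.05. DESeq2 gave 3 genes past the study's cut-offs, *Hfm1*, *AI481877* and *Rnf212* (background 0.267%), and also none after adjustment, where 0.134% of loci with an adjusted p were lower. The study's own list of changed genes, drawn from these libraries, holds *Hfm1*, *AI481877* and *Rnf212*, so their direction is not independent evidence. Of all tested loci, 49.9% had a fold change below 0 and the median log2 fold change was 0.0003.

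The counts depend on individual libraries. Without control 2 no gene passed the study's cut-offs (background in that fit 0.469% of loci) and 4 had lower RNA at an unadjusted p below 0.05 (background 2.28%). Without Mps1sKO 2 the numbers were also 0 (background 0.898%) and 4 (background 5.62%). Without control 1 the cut-offs were passed by 5 genes (background 1.51%), and without Mps1sKO 1 also by 5 (background 1.34%). By edgeR, 3 genes had an adjusted p below 0.05 without control 1, where 0.587% of loci were lower at that threshold, and 5 had when loci with low counts were not filtered out, where 0.712% of loci were. The shares over all loci were thus larger in those fits too, against 0.0292% in either direction with all libraries and the filter. Control 2 was the highest of the 4 libraries for all 10 genes and Mps1sKO 2 the lowest for 9 of them, while 14.6% of tested loci had that order. Among all tested loci, control 2 was above control 1 in 49.5%.

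**Figure D1:**
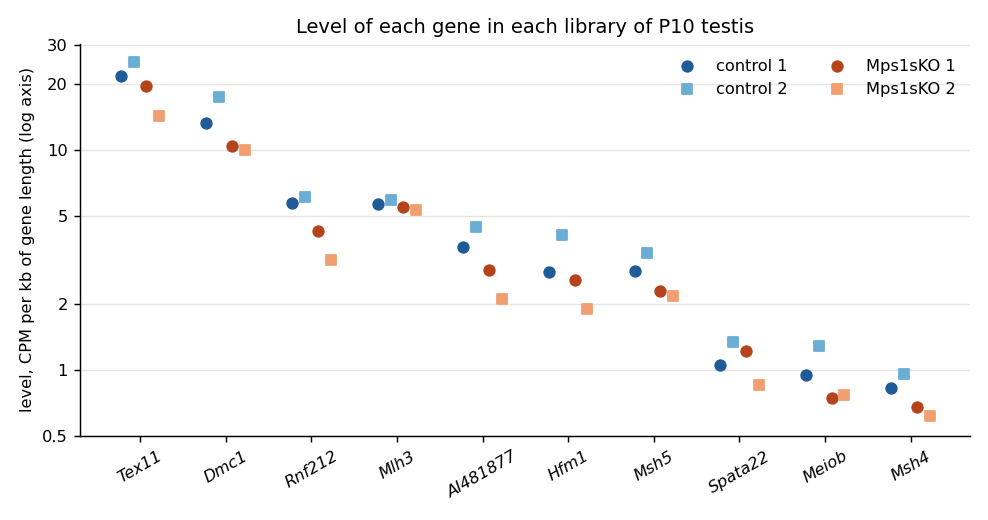
Level of each of the 10 genes in the 4 libraries (y axis, CPM per kb of gene length, log axis; x axis, genes ordered by control mean; 1 point per library). Levels ran from 25.2 for *Tex11* in control 2 to 0.616 for *Msh4* in Mps1sKO 2, and only *Spata22* has a Mps1sKO point above a control point.

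*Dmc1* (ENSMUSG00000022429, chr15:79561497-79605109, minus strand), the meiosis-specific recombinase, had 32.2 and 42.4 CPM in control and 25.4 and 24.3 CPM in Mps1sKO testes. Both Mps1sKO values lay below both control values, and the 2 control libraries differed from each other more than the 2 Mps1sKO libraries did. The Mps1sKO mean was 66.6% of control, with a log2 fold change of -0.59 ± 0.143 (SE) and an unadjusted p of 0.0038. At 1.502-fold lower it passed the 1.5-fold cut-off narrowly, and with DESeq2 or with DESeq2 size factors it did not, at -0.58 by both. Its log2 fold change was -0.37 without control 2 and -0.55 without Mps1sKO 2, also short of the cut-off.

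*Meiob* (ENSMUSG00000024155, chr17:24804289-24839788, plus strand) and *Spata22* (ENSMUSG00000112920, chr11:73329741-73346044, plus strand) encode partners that bind single-stranded DNA together. *Meiob* had 1.71 and 2.32 CPM in control and 1.34 and 1.38 CPM in Mps1sKO testes, which is 46, 67, 31 and 37 counts. The groups did not overlap, but at this depth the log2 fold change of -0.57 had a 95% interval of -1.19 to 0.06. *Spata22* had 1.34 and 1.70 CPM in control and 1.55 and 1.08 CPM in Mps1sKO testes, or 36, 49, 36 and 29 counts. It was the only one of the 10 whose groups overlapped, with a log2 fold change of -0.21 and an interval of -0.92 to 0.49, and without Mps1sKO 2 the change was 0.03. Of the 1274 exon bases of *Spata22*, 1025 (80.5%) also belong to *Gm49340* (chr11:73329741-73355913), an annotated gene on the same strand that reads through into its neighbour and that is listed at 0 counts in all 4 libraries. A read within the shared exons cannot be assigned to one of these genes, and only 249 bases are those of *Spata22* alone, so its level is uncertain. Divided by those 249 bases, the *Spata22* counts would be 5.36 and 6.81 CPM per kb in control and 6.23 and 4.34 CPM per kb in Mps1sKO testes. *Rpa1*, the large subunit of the general single-strand binding complex and a relative of *Meiob*, had 102, 112, 108 and 97.0 CPM in the same order of libraries, with a log2 fold change of -0.06 ± 0.0985.

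*Hfm1* (ENSMUSG00000043410, chr5:106840192-106926321, minus strand), a DNA helicase of the ZMM group, had 18.5 and 27.5 CPM in control and 17.2 and 12.7 CPM in Mps1sKO testes. Mps1sKO 1 lay only a little below control 1, with a 1.08-fold gap between the closest libraries of the groups. The log2 fold change was -0.63 ± 0.216, with an unadjusted p of 0.0205. The change was -0.32 (unadjusted p 0.133) without control 2 and -0.42 (unadjusted p 0.0658) without Mps1sKO 2. It was -0.89 without control 1 and -0.86 without Mps1sKO 1, past the study's cut-offs in both. *AI481877* (ENSMUSG00000038598, chr4:59043753-59138983, minus strand), whose protein resembles the XPF nucleases and binds branched DNA, had 20.8 and 25.8 CPM in control and 16.5 and 12.1 CPM in Mps1sKO testes. It had the lowest ratio of the 10, 61.2% of control, with a log2 fold change of -0.71 ± 0.179 and an unadjusted p of 0.0045. The gap between its closest libraries was 1.26-fold, and all 4 values kept the groups apart. Its log2 fold change was -0.50 without Mps1sKO 2 and -0.55 without control 2, short of the study's cut-offs in both. It was -0.86 without control 1 and -0.95 without Mps1sKO 1.

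*Msh4* (ENSMUSG00000005493, chr3:153857149-153906138, minus strand) and *Msh5* (ENSMUSG00000007035, chr17:35028605-35046745, minus strand) encode the subunits of a clamp that slides on joint molecules. *Msh4* had 5.71 and 6.61 CPM in control and 4.66 and 4.25 CPM in Mps1sKO testes, with a log2 fold change of -0.47 ± 0.178. *Msh5* had 15.6 and 18.7 CPM in control and 12.7 and 11.9 CPM in Mps1sKO testes, with a log2 fold change of -0.48 ± 0.142. Neither gene's groups overlapped, the unadjusted p values were 0.031 and 0.0103, and neither change reached 1.5-fold with all 4 libraries. Without control 2 both were at an unadjusted p above 0.05, with changes of -0.36 for *Msh4* and -0.34 for *Msh5*, and without Mps1sKO 2 so was *Msh4*, at -0.40, while without control 1 *Msh5* passed the study's cut-offs at -0.61. Per kb of gene length, *Msh4* stood at 29.4% and 28.3% of *Msh5* in control and at 29.4% and 28.6% in Mps1sKO testes, so the ratio of the subunits' RNA lay between 28.3% and 29.4% in all 4 libraries. *Msh6*, a relative that acts in mismatch repair, had a log2 fold change of -0.03 ± 0.122. A snoRNA gene on the opposite strand shares 125 exon bases (1.81%) with *Msh4*, and whether the counting used strand is not given in the sources used here.

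*Mlh3* (ENSMUSG00000021245, chr12:85234520-85270599, minus strand), an endonuclease subunit that acts at crossover sites, had 42.8 and 44.5 CPM in control and 41.7 and 40.1 CPM in Mps1sKO testes. The groups did not overlap, but their closest libraries differed by 1.03-fold, and the log2 fold change was -0.09 with a 95% interval of -0.31 to 0.12. The interval lies above a 1.5-fold decrease, whereas *Meiob* and *Spata22*, the other 2 genes whose intervals included 0, had intervals that reached past it. *Pms2*, a relative that acts in mismatch repair, had a log2 fold change of -0.29 ± 0.116 with an unadjusted p of 0.0387.

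*Rnf212* (ENSMUSG00000055385, chr5:108729290-108774982, minus strand), a RING-finger protein that stabilizes a subset of recombination sites, had 9.49 and 10.1 CPM in control and 7.07 and 5.18 CPM in Mps1sKO testes. It had the widest gap between the groups of the 10 genes, 1.34-fold between the closest libraries, while its 2 control libraries were 1.06-fold apart. The Mps1sKO mean was 62.6% of control, with a log2 fold change of -0.68 ± 0.188 and an unadjusted p of 0.0073. It was -0.64 without control 2 and -0.47 without Mps1sKO 2, and missed the study's cut-offs in both. *Tex11* (ENSMUSG00000009670, chrX:100838648-101059667, minus strand), an X-linked scaffold of the ZMM group, had 78.1 and 91.2 CPM in control and 70.7 and 51.9 CPM in Mps1sKO testes. The groups did not overlap, the Mps1sKO mean was 72.4% of control and the log2 fold change was -0.47 ± 0.154, with an unadjusted p of 0.017. Without Mps1sKO 1 the change of *Tex11* was -0.71, and without Mps1sKO 2 it was -0.26 with an unadjusted p of 0.0647.

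**Figure D2:**
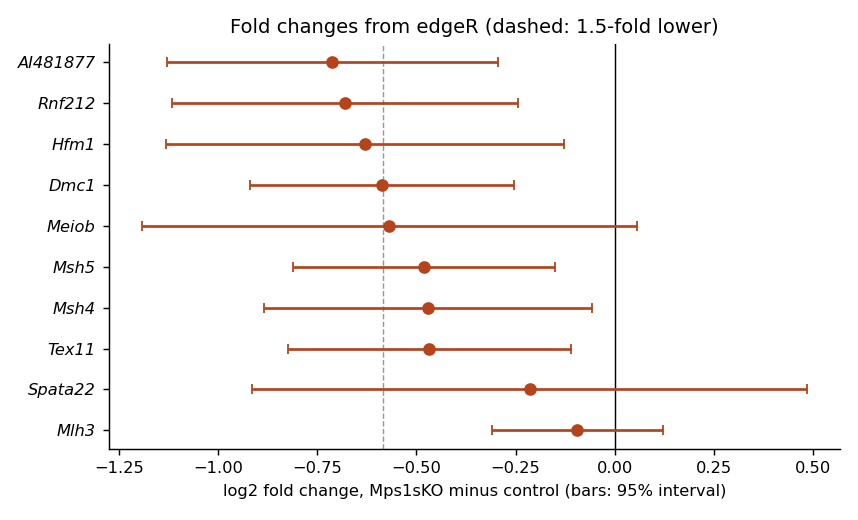
Log2 fold change of each gene, Mps1sKO minus control, from edgeR (x axis; points, estimates; bars, 95% intervals; n = 2 libraries a group; dashed line, 1.5-fold lower). The estimates lie between -0.71 and -0.09, and 3 intervals, those of *Meiob*, *Spata22* and *Mlh3*, include 0.

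Differences in fold change between the genes were not tested. Their 95% intervals overlapped in 45 of 45 pairs, which is no test of any pair, and the estimates lay furthest apart for *Mlh3* at -0.09 ± 0.0931 and *AI481877* at -0.71 ± 0.179. The level of *Tex11* over that of *AI481877*, per kb of gene length, was 599% and 563% in control and 685% in each Mps1sKO library. Ordered by level per kb of gene length in control, the genes were *Tex11* (23.4 ± 2.55 CPM per kb, SD), *Dmc1* (15.3 ± 2.96), *Rnf212* (5.94 ± 0.25), *Mlh3* (5.77 ± 0.159), *AI481877* (4.03 ± 0.615), *Hfm1* (3.44 ± 0.946), *Msh5* (3.10 ± 0.404), *Spata22* (1.19 ± 0.201), *Meiob* (1.12 ± 0.241) and *Msh4* (0.894 ± 0.0925). Neighbours whose control libraries overlapped were *Rnf212* with *Mlh3*, *AI481877* with *Hfm1*, *Hfm1* with *Msh5*, *Spata22* with *Meiob*, and *Meiob* with *Msh4*. In Mps1sKO testes the order was the same but for *Mlh3* and *Rnf212*. There *Mlh3* stood at 5.41 ± 0.151 CPM per kb and *Rnf212* at 3.72 ± 0.81, and the libraries of the 2 genes did not overlap. The place of *Spata22* in both orders uses its full gene length and is uncertain. Over its 249 unshared bases it would be at 5.36 and 6.81 CPM per kb in control and 6.23 and 4.34 in Mps1sKO testes.

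Whole testes hold germ cells and somatic cells in proportions that can differ, and in such samples fewer cells of a type and less RNA per cell cannot be told apart. Markers of the labelled tissue were present, with germ cell, Sertoli and Leydig genes all detected. All 11 germ cell genes of many stages (such as *Ddx4* and *Dazl*) were lower in both Mps1sKO libraries than in both control libraries (background 21.1% of loci). Their median log2 fold change was -0.41, with a summed level of 1490 and 1760 CPM in control against 1394 and 1053 CPM in Mps1sKO. The sum is uneven, as *Dazl* alone gave 465 and 583 CPM in control against 463 and 332 CPM in Mps1sKO. All 6 genes of differentiating spermatogonia were lower on average, with a median of -0.51 and sums of 397 and 473 CPM against 339 and 284 CPM. Of 11 genes of undifferentiated spermatogonia 7 were lower, with a median of -0.23 and sums of 417 and 371 CPM against 351 and 327 CPM. All 11 tested Sertoli genes were higher on average, with a median of 0.26. For 5 of them both Mps1sKO libraries lay above both control libraries, as for 4179 of 20561 tested loci. The list summed to 5318 and 5707 CPM against 7091 and 6275 CPM. Of this *Clu* alone gave 2897 and 3582 CPM against 4394 and 3316 CPM. *Rhox5* had a single count in 1 of the 4 libraries. Genes of late spermatocytes and spermatids summed to 11.9 and 13.1 CPM against 11.4 and 8.95 CPM over 9 genes, 5 of which had too few counts to test, and *Pgk2* had no count in either Mps1sKO library. The medians of the remaining lists were 0.18 for Leydig (6 genes), -0.12 for peritubular myoid (5), -0.13 for macrophage (5), 0.10 for endothelial (5) and 0.17 for red blood cell genes (3 of 4 tested). Of 4 adipocyte genes, 3 had their highest count in control 2. The counts in control 1, control 2, Mps1sKO 1 and Mps1sKO 2 were 28, 129, 15 and 12 for *Fabp4*, 2, 23, 1 and 7 for *Adipoq*, and 1, 16, 0 and 0 for *Cfd*. *Fabp4* passed the study's cut-offs at -2.34, *Plin1* was at 0.59, and the other 2 had too few counts to test. Control 2 was also the highest library for all 10 strand exchange and crossover genes, whose median log2 fold change without it was -0.35. The part of these shifts in the results for the 10 genes was not tested.

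**Figure D3:**
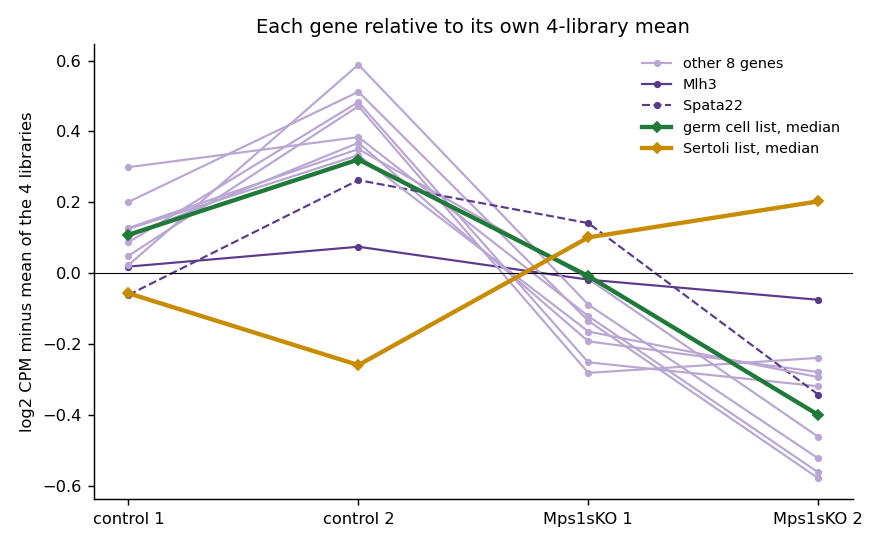
Log2 CPM of each gene minus its mean over the 4 libraries (y axis; x axis, libraries), with the medians of 11 germ cell genes and of 11 tested Sertoli genes. The germ cell median is highest in control 2 and lowest in Mps1sKO 2, as are 9 of the 10 genes, the Sertoli median is lowest in control 2 and highest in Mps1sKO 2, and *Mlh3* stays within 0.08 of its mean.

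Set against the summed level of the 11 germ cell genes in the same library, the 10 genes differed less in the median. The median log2 change of this share was -0.10, and 8 of 10 shares were lower on average. The share of *Mlh3* differed more than its level did, with log2 changes of 0.32 and -0.09. For *Spata22* they were 0.20 and -0.21. The shares of *Hfm1*, *AI481877*, *Rnf212* and *Tex11* were lower in both Mps1sKO libraries than in both control libraries, as were those of 2.27% of all tested loci. *AI481877* was at 1.40% and 1.47% of the germ cell sum in control and at 1.18% and 1.15% in Mps1sKO testes. *Rnf212* was at 0.637% and 0.573% in control and at 0.507% and 0.492% in Mps1sKO testes. The groups were closer for the other genes of this set. The closest libraries were control 1 at 1.24% and Mps1sKO 1 at 1.23% for *Hfm1*. For *Tex11* they were control 2 at 5.18% and Mps1sKO 1 at 5.07%. The log2 change of the share was -0.06 for *Tex11*, and also for *Msh5*, whose shares overlapped. For *Dmc1*, *Meiob*, *Msh4* and *Msh5* the shares of the 2 groups overlapped, as with *Dmc1* at 2.16% and 2.41% in control and 1.82% and 2.30% in Mps1sKO testes. The shares of *Mlh3* and *Spata22* were higher in both Mps1sKO libraries, as were those of 56.8% of all tested loci, for *Mlh3* 2.87% and 2.53% in control against 2.99% and 3.80%. With 2 libraries a group an exact permutation test of a single ratio cannot give a p below 0.333, so these shares are given without one.

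**Figure D4:**
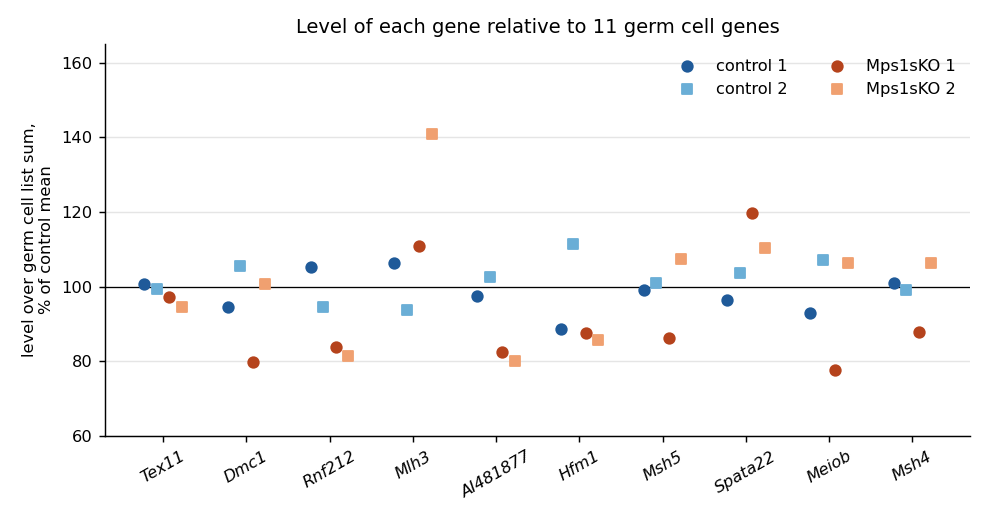
Level of each gene over the summed level of 11 germ cell genes in the same library, as a percentage of the control mean (y axis, starting at 60; x axis, genes; 1 point per library). *AI481877*, *Rnf212*, *Hfm1* and *Tex11* have both Mps1sKO points below both control points, narrowly for *Hfm1* and *Tex11*, and *Mlh3* and *Spata22* have both above.

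The other genes of the pathway were read from lists of known factors. Of 23 other strand exchange genes, which load, stimulate or remove the recombinases, 22 were lower on average (background 49.9% of loci). Both Mps1sKO libraries lay below both control libraries for 14 of them (background 21.1%). The median log2 fold change of the 23 was -0.29, and 9, all lower, reached an unadjusted p below 0.05 (background 5.37%). None passed the study's cut-offs (background 0.681%). The lowest was *Hsf2bp*, which helps bring recombinases to meiotic breaks, with 10.4 and 11.7 CPM in control and 7.76 and 7.46 CPM in Mps1sKO testes, a log2 fold change of -0.54 ± 0.149. The highest was *Mcm9*, a replication helicase paralog, at 0.21 ± 0.108, with 19.2% of its exon bases shared with a gene on the opposite strand. How many of the 23 genes reached these thresholds depended on the libraries kept. Their median was -0.18 without control 2, -0.21 without Mps1sKO 2, -0.40 without control 1 and -0.41 without Mps1sKO 1.

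Of 16 other crossover genes, 12 were lower on average and the median was -0.24. An unadjusted p below 0.05 was reached by 3 lower genes (background 5.37% of loci) and 1 higher gene of the list. The lowest was *1700028K03Rik*, also called *Spo16*, whose protein binds SHOC1, at 3.04 and 4.71 CPM in control and 3.19 and 2.01 CPM in Mps1sKO testes. Its groups overlapped, the log2 fold change of -0.59 had an SE of 0.303, and 36.3% of its exon bases belong also to another gene on the same strand. The highest was *Mus81*, a nuclease that resolves joint molecules outside the ZMM pathway, with 21.5 and 21.8 CPM in control and 24.9 and 27.3 CPM in Mps1sKO testes, a log2 fold change of 0.27 ± 0.111. Among 6 mismatch repair relatives of *Msh4*, *Msh5* and *Mlh3*, 5 were lower on average with a median of -0.08, from -0.29 for *Pms2* to 0.14 for *Msh3*, and *Pms2* alone had an unadjusted p below 0.05. The crossover and mismatch repair lists share 1 gene. No gene of either list passed the study's cut-offs with all 4 libraries (background 0.681%). For the other crossover genes, how many passed these thresholds depended on the libraries kept. Their median was -0.27 without control 1 or Mps1sKO 1, -0.14 without Mps1sKO 2 and -0.12 without control 2.

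Genes of the chromosome axis and synaptonemal complex and genes that make the breaks act just before and alongside strand exchange. All 10 synaptonemal complex genes had both Mps1sKO libraries below both control libraries (background 21.1% of loci). The median log2 fold change of the 10 was -0.60, and 6 passed the study's cut-offs (*Sycp1*, *Sycp2*, *Syce1*, *Syce3*, *Tex12* and *Hormad1*). They ranged from -0.74 for *Hormad1* to -0.31 for *4930447C04Rik*. Without control 2 none of the list passed, and without Mps1sKO 2 there was 1. All 9 break formation genes also had both Mps1sKO libraries below both control libraries, against the same 21.1% of loci. Their median was -0.60, from -0.76 for *Spo11*, the enzyme that cuts the breaks, to -0.33 for *Rec114*. Here 4 passed (*Spo11*, *Prdm9*, *Ankrd31* and *Hormad1*, which is in both lists), against the same 0.681% of loci. The median was -0.77 without control 1, -0.81 without Mps1sKO 1, -0.47 without Mps1sKO 2 and -0.42 without control 2. How many of these genes passed also depended on the libraries kept. These lists and the 10 strand exchange and crossover genes were compared in the same 4 libraries, and the difference between the lists was not tested.

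**Figure D5:**
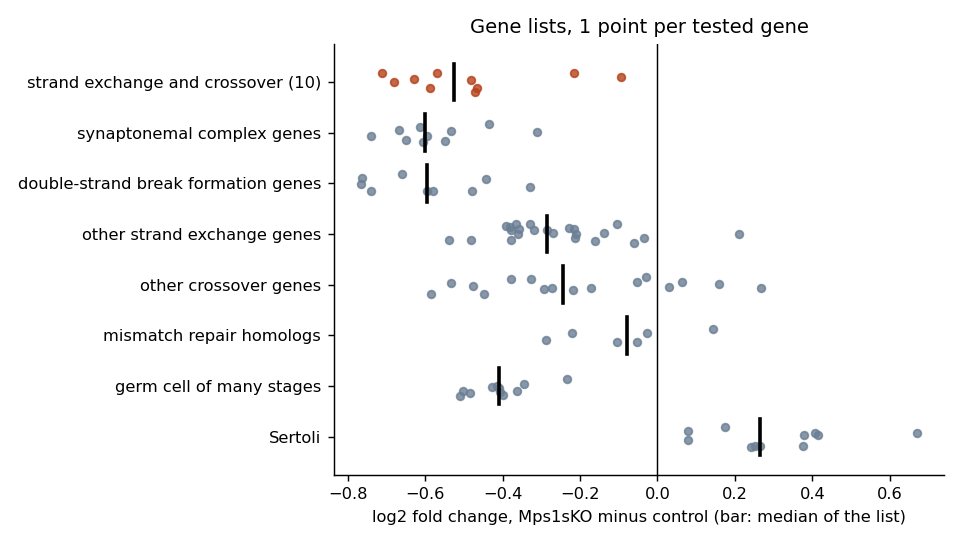
Log2 fold change of each tested gene, Mps1sKO minus control, by list (x axis; y axis, lists; bars, medians; vertical scatter within a list is random). The 10 strand exchange and crossover genes have a median of -0.52, between the synaptonemal complex genes at -0.60 and the germ cell genes at -0.41, and the Sertoli median is 0.26.

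The 5 genes whose pattern over the 4 libraries was nearest to the mean pattern of the 10, by Euclidean distance of log2 CPM centred on each gene's mean among 16826 candidates with at least 1 CPM, were *Pramef12*, *Tmem56*, *Ppp1r32*, *Kif15* and *Cdc6*. Their distances were 0.024 to 0.041 log2 units and their log2 fold changes -0.52 to -0.47. *Kif15* is a mitotic kinesin and *Cdc6* a replication licensing factor. A distance over 4 libraries says nothing of a shared function.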

How the data were processed

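The authors deposited 1 table of raw counts and FPKM values for 4 libraries, 2 control and 2 Mps1sKO, with gene lengths. Per the submitters' processing notes, HISAT2 2.0.5, featureCounts, DESeq2 1.16.1 and mm10 were used. The strandedness is not given in the sources used here. The deposited FPKM served only as a check.

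The main test on counts was that of edgeR 4.0.16 under R 4.3.3 (filterByExpr, TMM, estimateDisp, two-sided quasi-likelihood F test, Benjamini-Hochberg over 20561 loci, 95% intervals), with DESeq2 1.42.0 as an alternative. The floor of 3 counts was 0.104 to 0.129 CPM, which covers counting error only. Replicates differed beyond sampling noise (chi-square per degree of freedom 8.49 and 11.6). If the libraries of a group are technical, p-values measure technical spread only. Coordinates are those of GENCODE M21 (GRCm38), which matched the table for all 10 genes.

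The genes and lists were chosen with earlier results of these data known. Named were the 10 genes, *Ttk*, *Rpa1*, *Msh6*, *Pms2*, of each pathway list the genes past the study's cut-offs and the lowest and highest, and the 5 genes nearest in pattern. *Rhox5*, *Clu*, *Pgk2*, *Fabp4*, *Adipoq*, *Cfd*, *Plin1*, *Ddx4* and *Dazl* were named after their values were seen. Some related genes that the rule also names are not reported here.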

Additional observations from a re-analysis of the deposited data

How the results depend on the processing

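The direction was lower in 109 of 110 fold changes of the 10 genes under the alternatives (DESeq2, DESeq2 size factors, library size only, no filter, at least 10 counts in every library, replicate block, each library left out, and a crossed block added after seeing the data). The exception was *Spata22*, whose log2 fold change ran from -0.49 without Mps1sKO replicate 1 to 0.03 (0.0315) without Mps1sKO replicate 2. All 110 values come from refits of the same 4 libraries or a part of them, so they are not independent of each other. The median log2 fold change of the 10 genes was -0.67 to -0.35 with 1 library left out, against -0.52. The number past the study's cut-offs, 3 with all libraries, was 0 to 5 with 1 library left out and 7 with the relaxed cut-offs. The number at an adjusted p below 0.05 was 0 with all libraries, 5 without the filter and 0 to 3 with 1 library left out (3 without control 1). Among all loci, 170 passed the cut-offs (140 lower), 474 without the filter and 186 to 514 with 1 library left out. Where a group kept 1 library, it was assumed to vary like the other group.

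The labels give both groups the numbers 1 and 2, but same-numbered libraries did not deviate together (r = -0.27 over 17046 loci). A single correlation within these 4 libraries cannot show whether they were paired, so the block served only as an alternative. With the replicate block, 1 of the 10 genes passed the cut-offs, where 131 of all loci did (100 lower). With the crossed replicate block, 3 of the 10 genes passed the cut-offs, where 273 of all loci did (202 lower). In that fit 4 of the 10 genes had an adjusted p below 0.05. So did 9 of the 11 germ cell genes and 5 of the 11 tested Sertoli genes. The share of all loci at that threshold was not counted, so the 4 genes have no background to be set against. More loci passed the study's cut-offs in that fit than the 170 of the main fit. Depth limits *Meiob* and *Spata22* most, at 29 to 67 counts a library.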
